A study of Cricetulus griseus with 9 samples.

Results

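The BCL2 family was examined in CHO-K1 cells, a line derived from Chinese hamster ovary, after the level of the microRNA miR-29 had been raised or its action blocked. The members were 10 genes picked by mouse Ensembl identifier: Mcl1, Bcl2l1, Bcl2, Bax, Bak1, Bcl2l11, Bbc3, Bmf, Bid and Bad. Of these, 7 had a row among the 15557 genes of the expression table. Mcl1 (ENSMUSG00000038612), Bbc3 (ENSMUSG00000002083) and Bid (ENSMUSG00000004446) had neither a row nor a gene model in the annotation, so they were not analysed here, and nothing can be said about whether the cells express them. The account therefore rests on Bcl2l1 and Bcl2, on Bax and Bak1, and on Bcl2l11, Bmf and Bad.

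Proteins of the BCL2 family decide whether the outer mitochondrial membrane is opened during apoptosis. Bax and Bak1 are the effectors that form the opening, anti-apoptotic members such as Bcl2, Bcl2l1 (BCL-XL) and Mcl1 hold them in check, and BH3-only members such as Bcl2l11 (BIM), Bmf and Bad respond to stress or loss of growth signals by occupying the anti-apoptotic proteins or engaging the effectors. MicroRNAs of the miR-29 family pair through a shared seed with target mRNAs and lower their level or translation. In human cells MCL1 is a known miR-29 target, and in mouse neurons miR-29b is known to restrain several BH3-only genes, Bmf and Bcl2l11 among them, and a neuronal form of Bak1.

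All cells were grown in medium with charcoal-stripped serum and received 1 of 3 small RNAs by lipid transfection for 48 h. There were 2 synthetic precursors, pre-miR-29b-1 and, from the same family, pre-miR-29a, and an inhibitor, anti-miR-29a, that the submitters describe as blocking both microRNAs, with 3 libraries each. No untreated or mock-transfected cells were analysed here, so each difference is one between cells with added and cells with blocked miR-29. The submitters state that the transfections were separate experiments, and if each molecule had an experiment of its own, molecule and experiment cannot be told apart. Whether the 3 libraries of a group stem from different cultures is not stated, and p-values therefore reflect their spread alone, which may be technical. In such bulk libraries fewer cells with a transcript and less transcript per cell cannot be told apart.

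Levels are FPKM, fragments per kilobase of gene model scaled by library size, as deposited by the authors. Depth read from the steps in low values was 15190000 to 20790000 implied reads per library. Across all tested genes, estimated library weights were lowest for pre-miR-29a replicate 1, at 0.213, and highest for replicate 3 of the same group, at 3.54. Results for pre-miR-29a that turn on replicate 1 are given below with and without it. Fold changes are on the log2(FPKM + 1) scale, which understates changes of low genes, and come from limma with Benjamini-Hochberg adjustment over the 9504 genes that averaged 1 FPKM or more. All 7 measured members passed this filter.

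Most measured members were lower with either precursor than with the inhibitor, above all Bak1, whose mean was 0.39 times that with anti-miR-29a after pre-miR-29b-1 and 0.375 times after pre-miR-29a. In the pre-miR-29b-1 comparison with the inhibitor, 4 of the 7 measured members fell (Bcl2l1, Bax, Bak1 and Bmf) and 0 rose. Of all tested genes 55.2% were called there, 29.4% as lower and 25.8% as higher. In the pre-miR-29a comparison with the inhibitor, 5 members fell (Bcl2l1, Bax, Bak1, Bmf and Bad) and 0 rose. Of all tested genes 58.4% were called there, 30.9% as lower and 27.5% as higher. The share of members called at all was thus near the background and is no result about the family.

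The members that were called were without exception lower, and each also had libraries that did not overlap with those of the inhibitor. Such separation held for 67.6% of all tested genes with pre-miR-29b-1 (35.2% lower) and for 62.2% with pre-miR-29a (33.1% lower). All 7 log2 fold changes were below 0 for either precursor, where 50.8% of tested genes were for pre-miR-29b-1 and 51.7% for pre-miR-29a, although Bcl2 with pre-miR-29b-1 was at -0.03 and turned above 0 under some settings. The median over the members was -0.24 for pre-miR-29b-1 and -0.53 for pre-miR-29a, beside -0.01 and -0.02 over all tested genes. Quantile normalization turned the split of all called genes for pre-miR-29a to 3340 higher and 2494 lower, in place of 2613 higher and 2940 lower, while every member kept its direction against the inhibitor under each scaling tried. The comparisons share the anti-miR-29a libraries and so are not separate evidence.

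**Figure D1:**
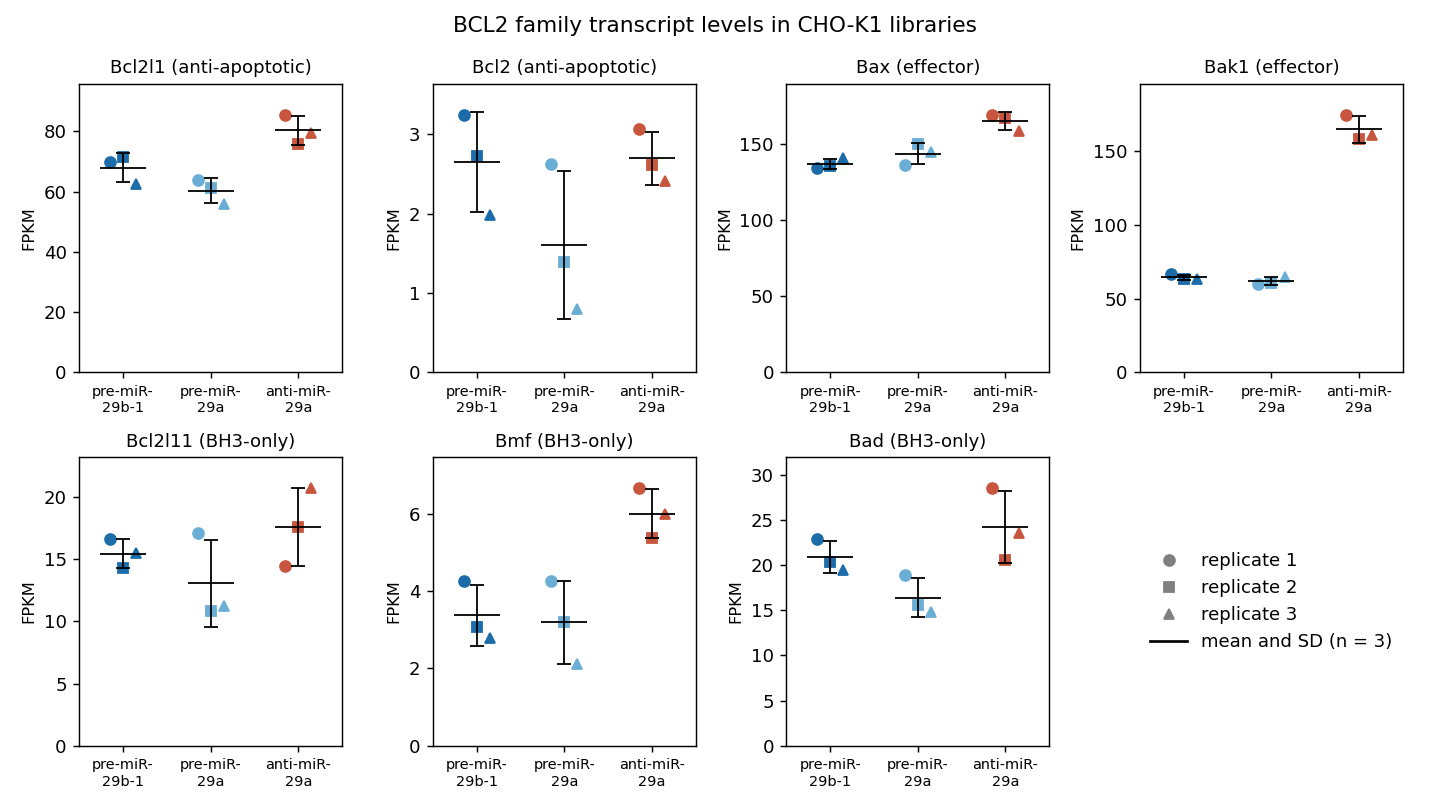
FPKM of the 7 measured BCL2 family members in each library, one panel per gene with its own axis from 0, both precursors left of anti-miR-29a; bars are the mean and SD of 3 libraries. Bak1 lies between 60.2 and 66.6 FPKM in the 6 pre-miR libraries and between 159 and 175 FPKM with anti-miR-29a, while Bcl2 and Bcl2l11 overlap between the groups.

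Among the effectors, Bak1 (ENSMUSG00000057789), which resides on the mitochondrial membrane, had 66.6, 63.2 and 63.3 FPKM in the 3 pre-miR-29b-1 libraries and 60.2, 60.7 and 64.9 FPKM in the 3 pre-miR-29a libraries, against 175, 159 and 161 FPKM in the 3 anti-miR-29a libraries. No pre-miR library came near the lowest inhibitor library, and the pre-miR groups overlapped each other. The means were 64.4 ± 1.93 FPKM with pre-miR-29b-1, 61.9 ± 2.62 FPKM with pre-miR-29a and 165 ± 8.87 FPKM with anti-miR-29a (SD, n = 3 each). The log2 fold change against anti-miR-29a was -1.34 (SE 0.054, adjusted p 7.16e-08, limma) for pre-miR-29b-1, or 2.54-fold lower. The value was -1.40 (SE 0.054, adjusted p 5.05e-08, limma) for pre-miR-29a, or 2.64-fold lower.

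These values rest on about 679 to 872 implied reads per pre-miR library and 1520 to 1900 per anti-miR-29a library. Over both pre-miRs together the log2 fold change of Bak1 was -1.37 (SE 0.047), and 141 of the 9504 tested genes, Bak1 included, had a value this low or lower. Only 3.81% of the tested genes were called at least 2-fold lower in that comparison, and Bak1 was the 1 member among them. Over the alternative settings and with any 1 library left out, the value stayed between -1.40 and -1.30. The gene model, on scaffold JH001393 of the CriGri_1.0 assembly from 224325 to 227949, plus strand, joins 5 coding exons of 630 bases in all and shares none with another gene model.

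Bax (ENSMUSG00000003873), the effector that moves from the cytosol to mitochondria, was the most abundant member with either precursor and changed far less. It had 135, 136 and 141 FPKM with pre-miR-29b-1 and 136.5, 150.2 and 145 FPKM with pre-miR-29a, against 169.7, 168 and 159 FPKM with anti-miR-29a. Every pre-miR library lay below every inhibitor library, by a narrow margin for pre-miR-29a. Its log2 fold change was -0.27 (SE 0.051, adjusted p 0.00143, limma) for pre-miR-29b-1 and -0.20 (SE 0.051, adjusted p 0.00678, limma) for pre-miR-29a, which is 1.20-fold and 1.15-fold lower. With quantile normalization the value for pre-miR-29b-1 was -0.17 (adjusted p 0.00521, limma). Over both pre-miRs 28.1% of all tested genes had a log2 fold change at or below that of Bax. Its model lies on JH000991 from 280823 to 286027, plus strand, with 5 coding exons.

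The difference between the effectors appeared within each library. Bak1 was at 0.495, 0.465 and 0.449 of the Bax level with pre-miR-29b-1 and at 0.441, 0.404 and 0.448 of it with pre-miR-29a, against 1.03, 0.947 and 1.02 with anti-miR-29a. With the inhibitor the effectors were thus about level in FPKM, and with either precursor Bak1 stood at 0.495 of Bax or less in every library. The summed FPKM of Bax and Bak1 was 201.6 ± 2.64 with pre-miR-29b-1 and 206 ± 7.91 in pre-miR-29a libraries, against 330.3 ± 13.1 with anti-miR-29a (SD, n = 3 each). These sums and ratios are descriptions and were not tested.

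**Figure D2:**
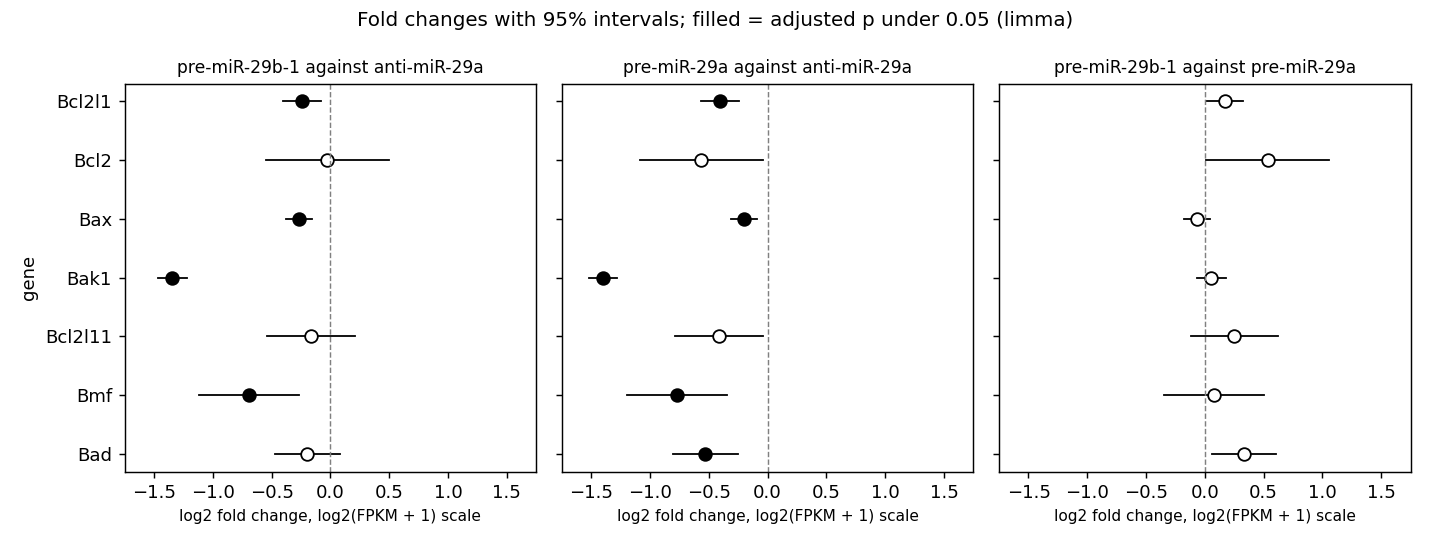
Log2 fold changes of the 7 members with 95% intervals (limma, log2(FPKM + 1) scale) for each precursor against the inhibitor and for pre-miR-29b-1 minus pre-miR-29a; filled points passed the adjusted threshold of 0.05. Bak1 stands apart at -1.34 and -1.40 against the inhibitor, and no member is filled in the comparison of the precursors.

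Of the anti-apoptotic members, Bcl2l1 (ENSMUSG00000007659), the more abundant of the pair measured, fell moderately. It had 69.9, 71.3 and 62.5 FPKM with pre-miR-29b-1 and 63.9, 61.1 and 55.9 FPKM with pre-miR-29a, against 85.6, 75.9 and 79.5 FPKM with anti-miR-29a. All libraries of either precursor lay below those of the inhibitor. In log2 terms Bcl2l1 changed by -0.24 (SE 0.072, adjusted p 0.0171, limma) for pre-miR-29b-1 and -0.41 (SE 0.072, adjusted p 0.000808, limma) for pre-miR-29a, which is 1.18-fold and 1.33-fold lower. For pre-miR-29b-1 the call ended without replicate 3 of that group (adjusted p 0.0696, limma), without anti-miR-29a replicate 1 (0.0653) and with quantile normalization (0.0948). The model is a single coding exon of 564 bases on JH000311 from 1221923 to 1222486, plus strand.

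Bcl2 (ENSMUSG00000057329), the founding member of the family, was the least abundant of the 7. It had 3.25, 2.72 and 1.98 FPKM with pre-miR-29b-1 and 2.63, 1.38 and 0.793 FPKM with pre-miR-29a, against 3.06, 2.61 and 2.42 FPKM with anti-miR-29a. The groups overlapped, and the pre-miR-29a libraries were widely spread, with replicate 3 resting on about 9 implied reads. The log2 fold change was -0.03 (SE 0.234, adjusted p 0.928, limma) for pre-miR-29b-1, with a 95% interval of -0.55 to 0.49. For pre-miR-29a it was -0.56 (SE 0.234, adjusted p 0.0618, limma), with an interval of -1.09 to -0.04. That value turned on single libraries in both directions, at -0.83 (adjusted p 0.0039, limma) without pre-miR-29a replicate 1 and at -0.33 (adjusted p 0.218, limma) without replicate 3. It also passed with library weights (-0.90, adjusted p 0.000628, limma) and with quantile normalization (-0.60, adjusted p 0.0348, limma). Library weights raised the calls over all tested genes for pre-miR-29a from 5553 to 6790. With a pseudocount of 0.1 it was -0.86 and with one of 5 it was -0.23, and neither passed. The model spans JH000288 from 606859 to 771527, plus strand, with 3 coding exons.

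Among the BH3-only members, Bmf (ENSMUSG00000040093), known for its link to the cytoskeleton and loss of attachment, fell with both precursors. It had 4.26, 3.07 and 2.78 FPKM with pre-miR-29b-1 and 4.27, 3.21 and 2.11 FPKM with pre-miR-29a, against 6.66, 5.37 and 5.99 FPKM with anti-miR-29a. No pre-miR library reached the lowest inhibitor library. The means were 3.37 ± 0.78 FPKM with pre-miR-29b-1, 3.20 ± 1.08 FPKM with pre-miR-29a and 6.01 ± 0.64 FPKM with anti-miR-29a (SD, n = 3 each).

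Bmf had log2 fold changes of -0.69 (SE 0.190, adjusted p 0.0113, limma) for pre-miR-29b-1 and of -0.77 (SE 0.190, adjusted p 0.00604, limma) for pre-miR-29a. These sizes depend on the pseudocount, which shrinks low genes. With 0.1 they were -0.83 for pre-miR-29b-1 and -0.94 for pre-miR-29a, and with 5 they were -0.40 and -0.43, and Bmf passed the test under both. Over both pre-miRs 7.90% of all tested genes had a value at or below that of Bmf. It rested on 25 to 63 implied reads per pre-miR library and 58 to 82 per anti-miR-29a library. The annotation holds 2 models of at most 4 coding exons, on JH000389 from 51712 to 68977, plus strand.

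Bad (ENSMUSG00000024959), a BH3-only protein controlled by growth factor signalling through phosphorylation, fell with pre-miR-29a. It had 22.8, 20.3 and 19.4 FPKM with pre-miR-29b-1 and 18.8, 15.6 and 14.8 FPKM with pre-miR-29a, against 28.5, 20.5 and 23.6 FPKM with anti-miR-29a. The pre-miR-29a libraries lay below the inhibitor libraries, while those of pre-miR-29b-1 overlapped them. For Bad the log2 fold change was -0.53 (SE 0.123, adjusted p 0.00437, limma) for pre-miR-29a and -0.20 (SE 0.123, adjusted p 0.204, limma) for pre-miR-29b-1, with an interval of -0.47 to 0.08. The value for pre-miR-29b-1 was -0.08 (adjusted p 0.607, limma) without anti-miR-29a replicate 1 and -0.30 (adjusted p 0.0667, limma) without anti-miR-29a replicate 2. With library weights it was -0.21 and passed (adjusted p 0.044, limma), so Bad is not shown to fall with pre-miR-29a alone. Those weights raised the calls over all tested genes for pre-miR-29b-1 from 5246 to 6507. The model lies on JH001489 from 315002 to 324154, minus strand, with 4 coding exons.

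Bcl2l11 (ENSMUSG00000027381), which encodes BIM, a strong activator of the effectors, had 16.6, 14.3 and 15.5 FPKM with pre-miR-29b-1 and 17.1, 10.8 and 11.2 FPKM with pre-miR-29a, against 14.4, 17.6 and 20.7 FPKM with anti-miR-29a. The groups overlapped, through the high pre-miR-29a replicate 1 and the low anti-miR-29a replicate 1. Its log2 fold change was -0.16 (SE 0.167, adjusted p 0.429, limma) for pre-miR-29b-1, with an interval of -0.54 to 0.21. It was -0.42 (SE 0.167, adjusted p 0.0546, limma) for pre-miR-29a, with an interval of -0.79 to -0.04. Without pre-miR-29a replicate 1 that value was -0.61 with an adjusted p of 0.00308, and without anti-miR-29a replicate 1 it was -0.54 with an adjusted p of 0.0261 (limma). In the other direction, it was -0.31 (adjusted p 0.178, limma) without pre-miR-29a replicate 2 and -0.30 (adjusted p 0.189, limma) without anti-miR-29a replicate 3. For pre-miR-29b-1 the value ran from -0.29 without anti-miR-29a replicate 1 to -0.05 without anti-miR-29a replicate 3, and neither passed. With library weights Bcl2l11 passed for pre-miR-29b-1 (-0.32, adjusted p 0.025, limma) and for pre-miR-29a (-0.67, adjusted p 0.000407, limma). So did 6507 of the 9504 tested genes for pre-miR-29b-1 and 6790 for pre-miR-29a. The annotation holds 2 models of at most 3 coding exons, on JH000086 from 1202510 to 1235411, minus strand.

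Over both pre-miRs together, 5 members fell, Bak1, Bmf, Bad, Bcl2l1 and Bax, beside 61.6% of all tested genes called and 32.3% called lower. Libraries did not overlap with those of the inhibitor for Bak1, Bmf, Bcl2l1 and Bax, as for 54.6% of all tested genes, 29.2% of tested genes being lower. Bad fell by 0.36 on the log2 scale (SE 0.107, adjusted p 0.0138, limma), a call that ended without anti-miR-29a replicate 1 (adjusted p 0.0712, limma). Bcl2 stood at -0.30 (adjusted p 0.228, limma) and Bcl2l11 at -0.29 (adjusted p 0.107, limma). Without pre-miR-29a replicate 1 both passed, at 0.0296 for Bcl2 and 0.00967 for Bcl2l11 (adjusted p, limma), and the count of members that fell became 7. In that setting 6222 of 9500 tested genes were called in either direction. With library weights both also passed, at 0.0158 for Bcl2 and 0.00108 for Bcl2l11 (adjusted p, limma), and Bcl2l11 passed without anti-miR-29a replicate 1 (0.0454). Library weights raised the calls over all tested genes from 5857 to 6894. The values were nearer 0 without pre-miR-29a replicate 3 for Bcl2, at -0.18 (adjusted p 0.388, limma), and without anti-miR-29a replicate 3 for Bcl2l11, at -0.17 (adjusted p 0.387, limma).

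**Figure D3:**
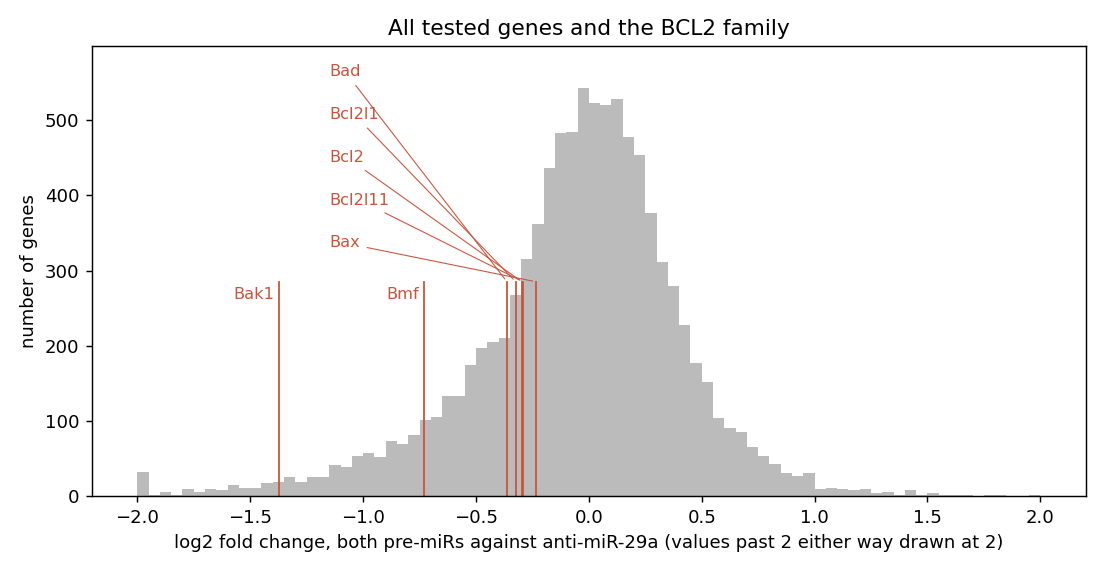
Number of tested genes by log2 fold change of the precursors together against anti-miR-29a (log2(FPKM + 1) scale, 9504 genes), with a line at each of the 7 measured members. The members other than Bak1 and Bmf lie between -0.36 and -0.23, inside the bulk of the distribution, and Bak1 lies at -1.37 in its lower tail.

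The precursors were then compared with each other, which asks whether miR-29b-1 and miR-29a differ in their effect on the family. Between the precursors 0 of the 7 members passed the adjusted threshold (limma), beside 0.0105% of all tested genes. At an unadjusted p under 0.05 (limma) 3 members did, beside 1570 of the 9504 tested genes. They were Bcl2l1, Bcl2 and Bad, each higher with pre-miR-29b-1. Their log2 differences were 0.17 for Bcl2l1 (95% interval 0.01 to 0.33, adjusted p 0.293), 0.54 for Bcl2 (0.01 to 1.06, adjusted p 0.3) and 0.33 for Bad (0.06 to 0.61, adjusted p 0.257). Bad was also the 1 member whose libraries did not overlap between the precursors, beside 18.9% of all tested genes.

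For the effectors and Bmf the precursors lay close together. The log2 difference was 0.06 for Bak1 with an interval of -0.07 to 0.18, -0.07 for Bax with an interval of -0.18 to 0.05, and 0.08 for Bmf with the wider interval of -0.35 to 0.50. With 1 library left out, the value of Bmf ran from -0.12 without pre-miR-29a replicate 3 to 0.26 without pre-miR-29a replicate 1. Bcl2l11 stood at 0.25 with an interval of -0.12 to 0.63. Without pre-miR-29a replicate 1, Bcl2 passed the threshold at a log2 difference of 0.81 (adjusted p 0.0322, limma), and without pre-miR-29a replicate 3 the difference was 0.30 (adjusted p 0.68, limma). Of the 9500 genes tested without pre-miR-29a replicate 1, 1378 passed. With library weights 4 members did, Bcl2l1, Bcl2, Bcl2l11 and Bad, all higher with pre-miR-29b-1, while 3627 of all tested genes passed.

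FPKM are scaled by the length of the gene model, so levels can also be set roughly against each other. How completely each model covers its gene was not tested, so orders and ratios between genes are approximate. With pre-miR-29b-1 the order by mean FPKM was Bax, Bcl2l1, Bak1, Bad, Bcl2l11, Bmf and Bcl2, and the ranges of Bcl2l1 and Bak1 and those of Bmf and Bcl2 overlapped. With pre-miR-29a it was Bax, Bak1, Bcl2l1, Bad, Bcl2l11, Bmf and Bcl2, and the ranges of Bak1 and Bcl2l1, of Bad and Bcl2l11 and of Bmf and Bcl2 overlapped. With anti-miR-29a the order was that of pre-miR-29a, but Bak1 overlapped with Bax in place of Bcl2l1, Bad again overlapped with Bcl2l11, and Bmf lay clear of Bcl2. The only change of order was thus between Bak1 and Bcl2l1 with pre-miR-29b-1, where their ranges overlapped. In level, Bak1 lay near Bcl2l1 with the precursors and near Bax with the inhibitor.

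Set against Bcl2l1 in the same library, Bak1 was at a ratio of 0.951 ± 0.064 with pre-miR-29b-1 and 1.03 ± 0.12 in pre-miR-29a libraries, against 2.06 ± 0.034 with anti-miR-29a (SD, n = 3 each). Bax over Bcl2l1 was 2.03 ± 0.20 with pre-miR-29b-1 and 2.40 ± 0.24 in pre-miR-29a libraries, against 2.06 ± 0.13 with anti-miR-29a, with overlap between pre-miR-29b-1 or pre-miR-29a libraries and those of the inhibitor. The summed FPKM of the effectors over that of Bcl2l1 and Bcl2 ranged from 2.69 to 3.17 with pre-miR-29b-1 and from 2.95 to 3.70 in pre-miR-29a libraries, against 3.89 to 4.16 with anti-miR-29a. The sum of Bcl2l11, Bmf and Bad over the same anti-apoptotic sum overlapped in all groups. It was 0.563 ± 0.048 with pre-miR-29b-1 and 0.525 ± 0.069 in pre-miR-29a libraries, against 0.576 ± 0.033 in anti-miR-29a libraries (SD, n = 3 each). These sums leave out Mcl1, Bbc3 and Bid and describe transcripts, not proteins.

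**Figure D4:**
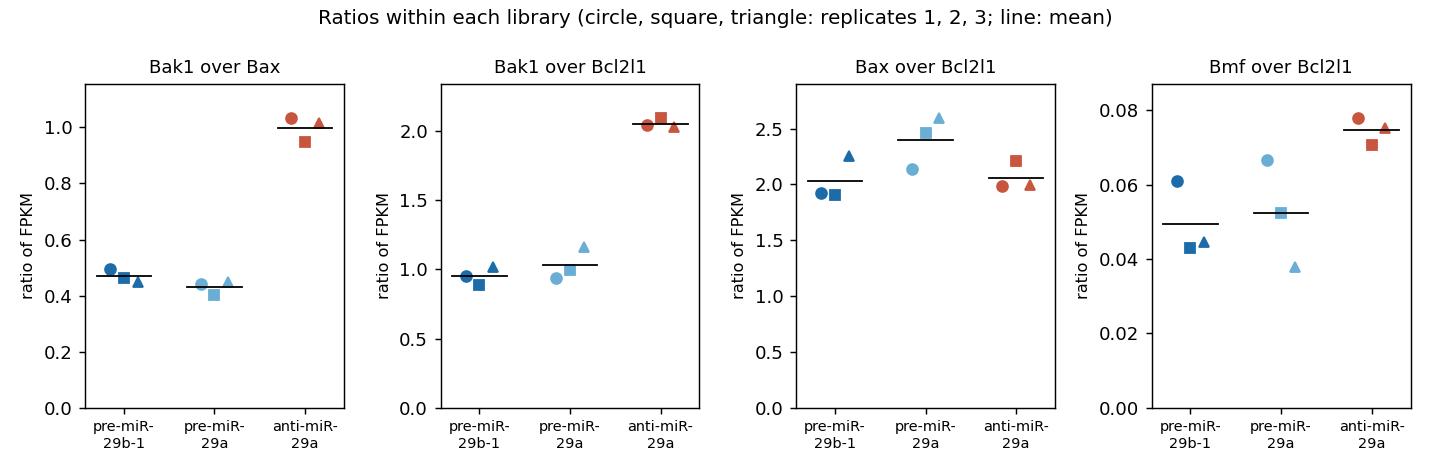
Ratios of FPKM between members within each library, from 0, for Bak1 over Bax, Bak1 over Bcl2l1, Bax over Bcl2l1 and Bmf over Bcl2l1; symbols mark the replicate and lines the group mean. Both Bak1 ratios separate the precursor libraries from the inhibitor libraries, at 0.404 to 0.495 against 0.947 to 1.03 for Bak1 over Bax. Bmf over Bcl2l1 also separates them, by a narrow margin, at 0.0378 to 0.0667 against 0.0708 to 0.0778. The Bax over Bcl2l1 ratios overlap.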

How the data were processed

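The authors deposited 1 table of FPKM per gene for 9 libraries. Libraries were stranded mRNA preparations of 2 µg total RNA, per the labels' protocols. The submitters' processing notes name FastQC, the aligner TopHat2 2.0.13 and Cuffnorm. For Cuffnorm, the version, scaling and strand setting were not given in the sources used here. Mouse proteins (Ensembl release 66) placed on CriGri_1.0 served as gene models, per the file headers, so untranslated regions are outside them. Gene names come from the rule that lists the members. Exon coordinates deposited by the authors gave coding lengths. Implied reads used genes of at least 3000 bases, where at least 99.1% of a library's values up to 5 reads were whole to within 0.2. They are approximate for short members.

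Limma 3.58.1 (R 4.3.3) was run on log2(FPKM + 1), with trended moderated variances and all 9 libraries in 1 fit. Tests were two-sided at 0.05, and the code was checked on simulated data. The members and lists were chosen with earlier results of these data known. Every member with a row is named. Wider apoptosis lists and a search for genes patterned like Mcl1 were not used, because no source paired symbols with the identifiers and Mcl1 has no row. Alternatives changed pseudocount, filter, scaling, variance model, weights, libraries and block.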

Additional observations from a re-analysis of the deposited data

How the results depend on the processing

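In 20 alternative settings, 9 of which leave out 1 library, the counts of called members and of all called genes against anti-miR-29a stayed within 1.5 times. Of 407 member values under these settings against anti-miR-29a, 385 kept direction and side of the threshold, 4 lost the call, 15 gained one and 3 changed sign. Those 3 were all Bcl2 with pre-miR-29b-1, at 0.012 with array weights and -0.15 to 0.11 when 1 library was left out. Between the precursors, Bmf turned to -0.015 with quantile normalization and ranged from -0.12 to 0.26 without 1 library, and Bak1 turned to -0.012 with array weights. None of these passed a test. In that comparison 0 members passed, but 4 with array weights and 0 to 1 without 1 library. All genes called numbered 1, but 0 with no moderation, 0 with only the groups compared, 3627 with array weights and 1 to 1378 without 1 library, the highest without pre-miR-29a replicate 1. With the replicate block 184 passed. For all of these the cause was not tested. Libraries with the same number deviated together at r of -0.02 to 0.29, over 0.1 in 6 of 9 pairs. The labels do not tie the numbers across groups, so the main fit did not take them as pairs. These values do not show that the libraries were unpaired. With the replicate block Bad passed with pre-miR-29b-1 (adjusted p 0.041, limma) and Bcl2 with pre-miR-29a (0.0108), and no member lost a call. For both pre-miRs the fit of only the groups compared is the reported one. A filter at a mean of 5 FPKM left out Bcl2 and Bmf, and 3 of the other 5 members were called for pre-miR-29b-1, while 4 were for pre-miR-29a. Of the 8618 genes tested with this filter, 4867 were called for pre-miR-29b-1 and 5141 for pre-miR-29a. Depth limits Bcl2 and Bmf most, and untranslated regions, sites of miR-29 pairing and proteins were not analysed here.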

Other observations

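Bad, Bcl2 and Bmf were each highest in replicate 1 of all 3 groups. Bcl2 had 3.25, 2.63 and 3.06 FPKM in replicate 1 of pre-miR-29b-1, pre-miR-29a and anti-miR-29a, and no other library was above 2.72 FPKM. Over all tested genes replicate 1 was highest in every group for 12.2%, replicate 2 for 3.16% and replicate 3 for 3.2%. Bcl2l11 followed this in the precursor groups, with 16.6 and 17.1 FPKM in replicate 1, but was lowest in anti-miR-29a replicate 1, at 14.4 FPKM. Bak1 and Bax did not share the pattern, and pre-miR-29a replicate 1 held the lowest value of its group for both, at 60.2 and 136.5 FPKM. The labels do not say what a replicate number marks, and the part of replicate number in the member results was not tested beyond the block fit.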
